A study of Mus musculus with 12 samples.

Results

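The 10 genes described here encode proteins that fill and organise the space around heart cells, namely proteoglycans, components of elastic fibres and proteins that bind collagen or mineral. They were chosen by name, with earlier results of these data known, as *Vcan*, *Hspg2*, *Bgn*, *Dcn*, *Lum*, *Eln*, *Fbn1*, *Fbln5*, *Mgp* and *Sparc*. All 10 were found by Ensembl identifier among the 48526 genes counted. RNA came from Purkinje cells (PCs), the cells that carry the impulse through the ventricular conduction system, and from working ventricular myocytes (VMs) of adult male mice, with 3 libraries each of *Ncam-1* WT PCs, *Ncam-1* KO PCs, *Ncam-1* WT VMs and *Ncam-1* KO VMs. All 4 groups carried the *Cntn2*-EGFP reporter, a BAC transgene kept on a CD1 background and crossed with the *Ncam-1* mutant line, which was kept on C57BL/6. Dissociated cells were incubated with TMRM at 50 nM, which loads mitochondria and so labels cardiomyocytes red, and were sorted as RFP+GFP+ (PC) or RFP+GFP- (VM), so a PC is defined by activity of the reporter. The labels do not say whether replicates came from separate animals or pools, and p-values therefore measure the spread between these libraries, which may be technical.

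A proteoglycan is a core protein that carries long, charged sugar chains. Versican (*Vcan*) binds hyaluronan and makes loose, hydrated matrix, perlecan (*Hspg2*) carries heparan sulphate in basement membranes, and the small leucine-rich proteoglycans biglycan (*Bgn*), decorin (*Dcn*) and lumican (*Lum*) bind collagen fibrils. Elastic fibres have a core of elastin (*Eln*) on a scaffold of fibrillin microfibrils (*Fbn1*), and fibulin 5 (*Fbln5*) takes part in their assembly. Matrix Gla protein (*Mgp*) is an inhibitor of calcification, and SPARC (*Sparc*) binds collagen and calcium. In the heart most of these genes are known as products of fibroblasts and vessel wall cells, whereas cardiomyocytes lie in a basement membrane that holds perlecan.

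Each library held between 13883427 and 42505705 read pairs on genes, of which 79% to 91.3% were on the mitochondrial genome, and 1532393 to 6761356 counts remained for all other genes. *Ncam1* itself had 83, 34 and 116 counts in WT PC replicates 1, 2 and 3, 0 or 1 count in every KO library, and 0 to 9 counts in WT VMs, so that it checks the genotype labels in PCs and not in VMs. Levels are given as normalized counts, that is counts divided by the library's effective size and brought back to the scale of an average library. *Cntn2*, the gene of the sorting reporter, was at normalized counts of 237, 451 and 533 in WT PCs and 38.7, 49.2 and 452 in KO PCs, against 2.22 to 8.99 in the 6 VM libraries. The summed normalized count of 8 cardiomyocyte markers was between 331000 and 654000 in all 12 libraries. WT PC replicate 2 stood apart, with 63.9% of its read pairs not aligned (18.8% to 24.7% in the others) and the fewest genes detected (11847, against 13571 to 18129). KO VM replicate 1 had the lowest sums of fibroblast, endothelial, smooth muscle and leukocyte markers.

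The upstream sequences of *Vcan* and *Hspg2* are shown because these genes had the largest and the smallest difference between PCs and VMs among the members that separated the cell types in every library. They come from the 250 bases before the start of transcription in RefSeq (GRCm38.p6), 5′ to 3′ on the gene's strand, at chr13:89742513-89742762 on the minus strand for *Vcan* and chr4:137468553-137468768 on the plus strand for *Hspg2*, where the last bases are left off because GENCODE places them inside the gene. Capitals mark matches to GGGCGG (GC box) or CCAAT on either strand.
*Vcan*: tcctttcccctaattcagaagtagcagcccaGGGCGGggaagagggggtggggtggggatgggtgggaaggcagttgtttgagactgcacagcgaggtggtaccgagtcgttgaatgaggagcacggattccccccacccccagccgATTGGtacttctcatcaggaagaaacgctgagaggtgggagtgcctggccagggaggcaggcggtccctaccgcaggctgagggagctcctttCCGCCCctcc
*Hspg2*: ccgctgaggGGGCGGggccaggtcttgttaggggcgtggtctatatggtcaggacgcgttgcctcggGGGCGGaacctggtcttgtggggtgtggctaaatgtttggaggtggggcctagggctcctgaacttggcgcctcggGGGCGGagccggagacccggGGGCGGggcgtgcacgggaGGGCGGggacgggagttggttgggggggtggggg

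The *Vcan* stretch held GGGCGG beginning 219 bases before the start and, on the other strand, 10 bases before it, and CCAAT on the other strand 103 bases before the start. The *Hspg2* stretch held 5 copies of GGGCGG, all on the gene's strand. Over the whole 250 bases *Hspg2* was 70% G and C and *Vcan* 62.4%, against a median of 52.4% over all promoters. Of 32851 mouse promoters in the same table, 32.7% held GGGCGG, 33.8% CCAAT, 12.4% TATAAA and 12% CCGGAA in their 250 bases on either strand, and neither gene held TATAAA or CCGGAA. An entry was present for 6 of the 10 members, namely *Vcan*, *Hspg2*, *Bgn*, *Fbn1*, *Fbln5* and *Sparc*.

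The members differed widely in level. Per kilobase of exon, *Mgp* had the highest mean level in all 4 groups, at 242 ± 34.6 normalized counts per kb in WT PCs, 119 ± 37.6 in KO PCs, 50.3 ± 22.8 in WT VMs and 26.6 ± 9.85 in KO VMs (SD, n = 3). In WT PCs the order went on with *Sparc* (139 ± 81.9), *Dcn* (128 ± 55.1), *Lum* (74.7 ± 70.7), *Vcan* (55.5 ± 30.1), *Bgn* (29.6 ± 15.2), *Hspg2* (26.5 ± 4.94), *Fbn1* (7.86 ± 2.27), *Fbln5* (2.06 ± 1.29) and *Eln* (1.95 ± 0.829 normalized counts per kb). Each of these overlapped its neighbour in the order except *Hspg2* with *Fbn1* and *Fbn1* with *Fbln5*. *Vcan* was at rank 5 of the 10 in WT PCs, 7 in KO PCs and 8 in both VM groups, and *Hspg2* at rank 7 in WT PCs and 4 in both VM groups. These ranks depend on the exon length, which is that of all annotated exons merged (1187 bases for *Mgp*, 5838 for *Dcn*). Without division by length, the WT PC mean of *Mgp* (287) was below those of *Vcan* (803), *Dcn* (748), *Sparc* (527) and *Hspg2* (379). The 10 genes together took 0.0882% to 0.146% of the counts outside the mitochondrial genome in WT PCs, 0.0672% to 0.0833% in KO PCs, 0.0218% to 0.0329% in WT VMs and 0.0138% to 0.0254% in KO VMs.

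**Figure D1:**
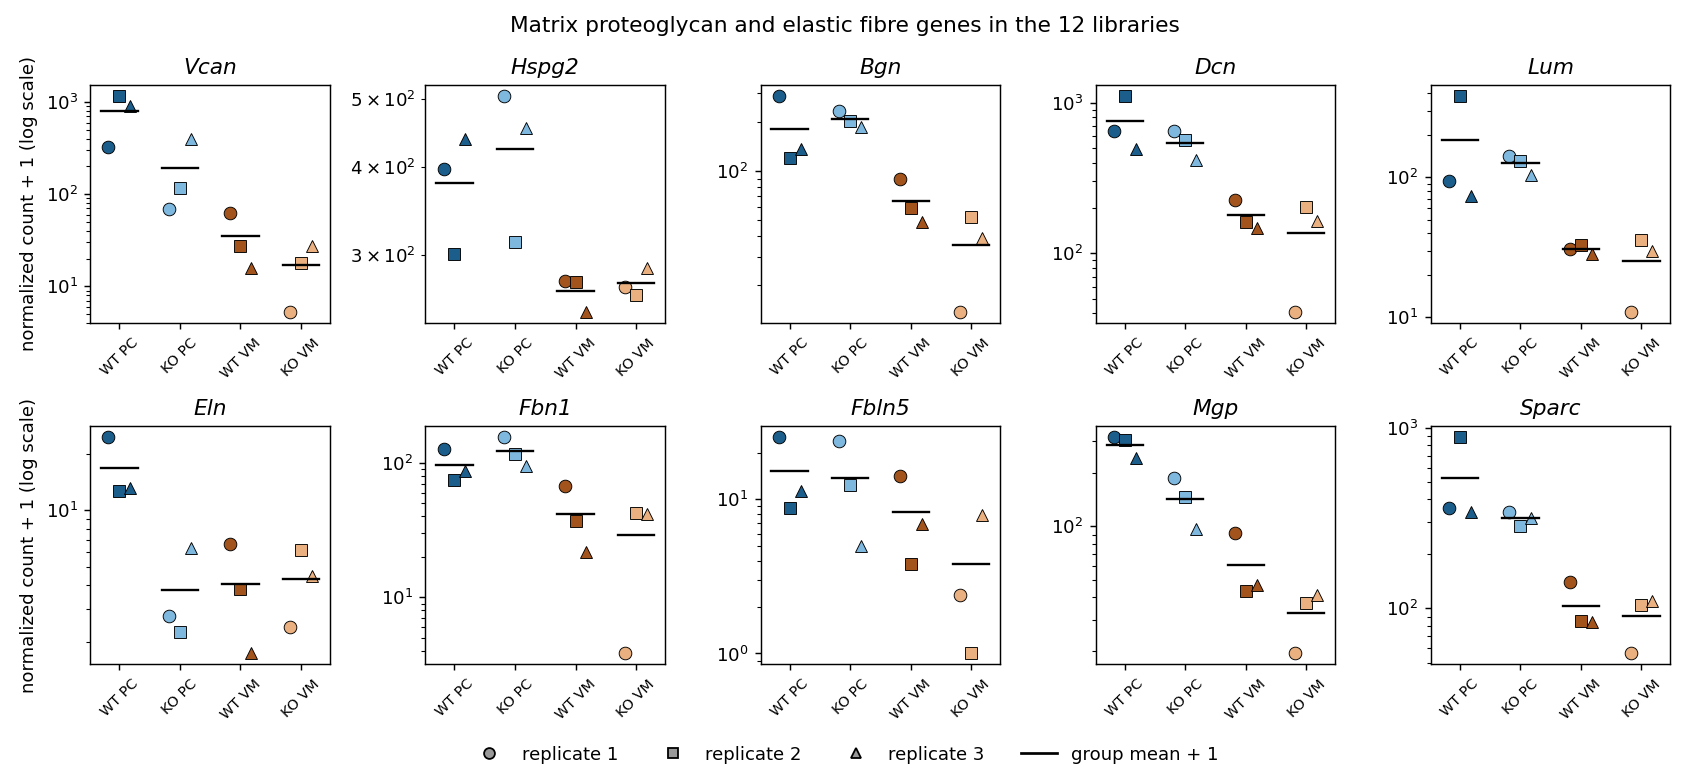
Normalized count plus 1 of each member (y axis, log scale) in each of the 12 libraries, with the 4 groups along the x axis, a point for each library, its shape for the replicate and a bar at the group mean. *Vcan* spans the widest range, from 4.24 to 1170 normalized counts, and *Hspg2* the narrowest, from 248 to 504.

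Versican was the member that differed most between the cell types. Its gene lies on mouse chromosome 13 (GRCm38, 89655312 to 89742509, minus strand), and the genes inside its introns had at most 4 counts in a library. The normalized counts of *Vcan* were 325, 1170 and 909 in WT PC replicates 1, 2 and 3 and 68.6, 117 and 396 in KO PCs. In VMs they were 61.9, 26.4 and 14.8 in WT and 4.24, 16.7 and 26.6 in KO. Every PC library was above every VM library, with KO PC replicate 1 close to WT VM replicate 1. In WT cells the mean was 803 ± 435 in PCs and 34.3 ± 24.5 in VMs (SD, n = 3), and PCs exceeded VMs by 4.52 on the log2 scale (SE 0.628) at an adjusted p of 0.0451 by edgeR's quasi-likelihood test. In KO cells the log2 fold change was 3.61 (SE 0.586, adjusted p = 0.0108, edgeR), and 2.52 without KO PC replicate 3, with a range of 2.52 to 4.21 over the fits that left out a library. Over both genotypes, with genotype held, it was 4.16 (SE 0.52, adjusted p = 0.000648, edgeR).

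The WT contrast alone gave few calls. Of 11390 genes tested, 13 (0.114%) passed the adjustment, all of them higher in PCs, and *Vcan* was the only member among them. Its call was lost with DESeq2's size factors in edgeR (adjusted p = 0.0552), with counts thinned to the smallest library (0.0717) and when WT PC replicate 3 (0.258) or WT VM replicate 1 (0.141), 2 (0.572) or 3 (0.373) was left out, and over all alternatives the adjusted p ran from 1.57e-35 to 0.572. Its log2 fold change stayed between 4.15 and 5.27 with any 1 library left out. Without WT PC replicate 2, the library with the most unaligned pairs, 6 members passed in the WT contrast, *Vcan*, *Bgn*, *Dcn*, *Lum*, *Mgp* and *Sparc*, among 107 genes called. In KO cells 94 of 11191 genes (0.84%) passed, 0.831% being higher in PCs, and 6 of the 9 members tested were among them. In that contrast *Vcan* was lost without KO VM replicate 1 (adjusted p = 0.0624, edgeR, range over the alternatives 5e-29 to 0.117) and *Dcn* without KO PC replicate 1 (0.058), KO PC replicate 2 (0.067) or KO VM replicate 3 (0.0605), and also with DESeq2's Wald test (0.106), its adjusted p running from 6.35e-22 to 0.135 over the alternatives. A single fit of all 12 libraries called 1 gene and no member in the KO contrast. Over both genotypes 145 of 11323 genes (1.28%) passed, 1.26% being higher in PCs, and the same 6 members were among them, *Vcan*, *Bgn*, *Dcn*, *Lum*, *Mgp* and *Sparc*, each of which also passed in all 12 fits that left out a library and under all 6 alternatives. With WT PC replicate 2 and KO VM replicate 1 both omitted, an alternative added after the data were seen, 8 members passed, among 339 genes called (2.94%).

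**Figure D2:**
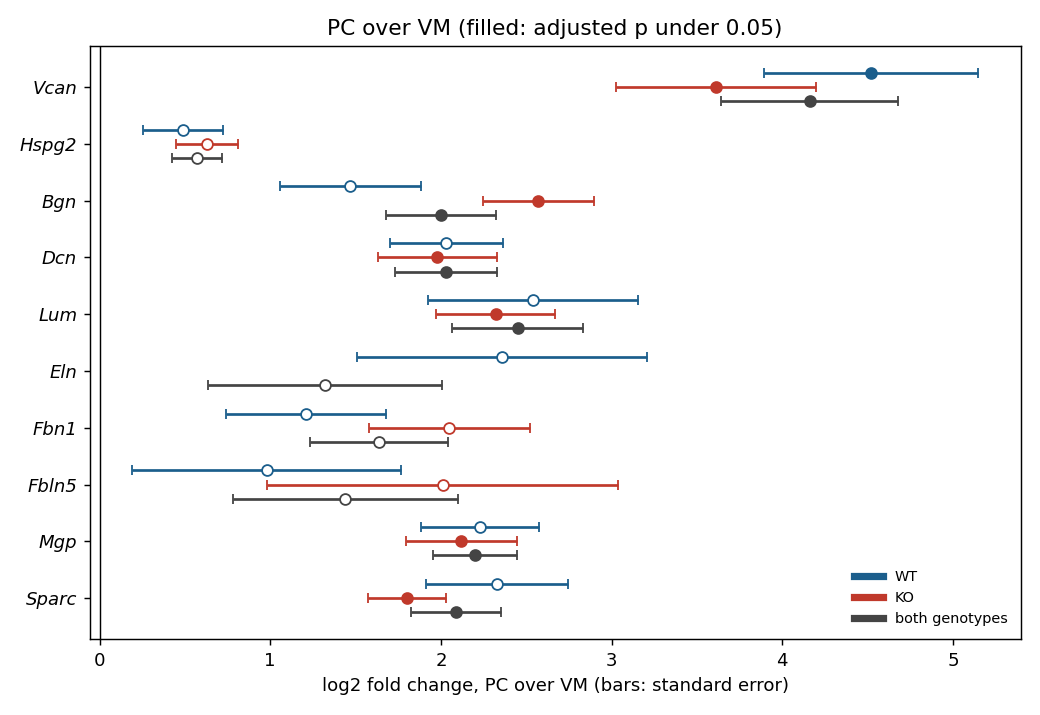
Log2 fold change of PCs over VMs (x axis) for each member, in WT cells, in KO cells and over both genotypes, with bars for the standard error and filled points for an adjusted p under 0.05 (edgeR). In WT cells only the point of *Vcan* is filled, in KO cells and over both genotypes 6 are, and *Hspg2* lies closest to 0 with 0.49, 0.63 and 0.57. *Eln* was not tested in KO cells.

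Decorin, lumican and biglycan were higher in PCs over both genotypes. *Dcn* (chromosome 10, 97479609 to 97518143, plus strand), which binds collagen and several growth factors, had normalized counts of 649, 1110 and 488 in WT PCs, 650, 562 and 412 in KO PCs, 225, 160 and 147 in WT VMs and 39.6, 203 and 163 in KO VMs. The lowest PC library was above the highest VM library, and the PC groups of the 2 genotypes overlapped. Over both genotypes *Dcn* was higher in PCs by 2.03 on the log2 scale (SE 0.296, adjusted p = 0.00182, edgeR), and by 1.60 with WT PC replicate 2 and KO VM replicate 1 omitted.

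*Lum* (chromosome 10, 97565128 to 97572703, plus strand), which regulates the spacing of collagen fibrils, was at 93.3, 382 and 72.8 in WT PCs, 141, 131 and 103 in KO PCs, 30, 32 and 27.4 in WT VMs and 9.9, 34.7 and 28.9 in KO VMs. WT PC replicate 2 was the highest of the 12 libraries for *Lum*, more than 2 times any other. The log2 fold change of PC over VM was 2.45 (SE 0.384, adjusted p = 0.0033, edgeR), and 1.68 with that library and KO VM replicate 1 omitted.

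*Bgn* (chromosome X, 73483602 to 73495933, plus strand), the closest relative of *Dcn*, was at 288, 119 and 136 in WT PCs, 232, 201 and 185 in KO PCs, 88.1, 58.4 and 48.1 in WT VMs and 12.7, 51.4 and 38.2 in KO VMs. All 6 PC libraries were above all 6 VM libraries. In KO cells its log2 fold change was 2.57 (SE 0.326, adjusted p = 0.00187, edgeR) and 1.47 in WT cells (SE 0.415, adjusted p = 0.56, edgeR). The difference between these contrasts was 1.08 (SE 0.586, adjusted p = 0.999, edgeR), so a difference between genotypes was not shown.

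Perlecan had the smallest difference between the cell types. *Hspg2* (chromosome 4, 137468769 to 137570630, plus strand) was at 397, 300 and 438 in WT PCs, 504, 312 and 454 in KO PCs, 275, 274 and 248 in WT VMs and 269, 262 and 287 in KO VMs. The cell types did not overlap, but the lowest PC value, 300, lay near the highest VM value, 287. Its log2 fold change over both genotypes was 0.57 (SE 0.145, adjusted p = 0.0616, edgeR, range over the alternatives 0.00167 to 0.164). In the fit without WT PC replicate 2 and KO VM replicate 1 it was 0.61 and passed (adjusted p = 0.0117, edgeR). That fit was added after the data were seen, so the pass is given as a description.

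Among the elastic fibre genes, *Fbn1* was weaker, and *Fbln5* and *Eln* were both low, near the floor of detection in several libraries. *Fbn1* (chromosome 2, 125300594 to 125507993, minus strand) was at 126, 74.1 and 85.5 in WT PCs, 155, 115 and 93.6 in KO PCs, 66.6, 35.8 and 20.7 in WT VMs and 2.83, 41.1 and 40.5 in KO VMs. The PC and VM libraries did not overlap, and KO VM replicate 1 was the lowest. The exons of *Gm9913* on the opposite strand overlap those of *Fbn1* over 2442 bases, and it had at most 1 count in a library. The log2 fold change over both genotypes was 1.64 (SE 0.404, adjusted p = 0.0577, edgeR, range over the alternatives 8.3e-07 to 0.161). Without WT PC replicate 2 and KO VM replicate 1 it was 1.44 (adjusted p = 0.00266, edgeR). That fit was added after the data were seen, so its pass is given as a description.

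*Fbln5* (chromosome 12, 101746565 to 101819055, minus strand) had normalized counts of 24.4, 7.8 and 10.4 in WT PCs, 22.9, 11.4 and 4.01 in KO PCs, 13.1, 2.82 and 5.92 in WT VMs and 1.41, 0 and 6.95 in KO VMs. The groups overlapped, and KO VM replicate 2 had no count, which allows a level of up to 3 counts, or 3.85 normalized counts, by counting error alone. Its log2 fold change of 1.44 (SE 0.66) had an adjusted p of 0.412 (edgeR).

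*Eln* (chromosome 5, 134702593 to 134747323, minus strand) was counted 54, 6 and 21 times in WT PC replicates 1, 2 and 3, 1, 1 and 8 times in KO PCs, 6, 3 and 1 times in WT VMs and 1, 4 and 3 times in KO VMs. As normalized counts the WT PC values were 23.5, 11.7 and 12.1, above all other libraries, whose highest was 5.63. *Eln* had too few counts to be tested between KO PCs and KO VMs or between the VM genotypes. It passed the filter on low counts in the other comparisons only through its level in WT PCs. In WT cells the log2 fold change of PC over VM was 2.36 (SE 0.849, adjusted p = 0.692, edgeR).

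The calcification inhibitor and the collagen-binding glycoprotein were both higher in PCs. *Mgp* (chromosome 6, 136872435 to 136875823, minus strand) was at 316, 304 and 240 in WT PCs, 185, 145 and 95.6 in KO PCs, 91, 42.4 and 45.9 in WT VMs and 18.4, 36 and 40.5 in KO VMs. All PC libraries were above all VM libraries, and KO PCs lay between WT PCs and WT VMs without overlap. The log2 fold change over both genotypes was 2.20 (SE 0.248, adjusted p = 0.00033, edgeR).

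*Sparc* (chromosome 11, 55394500 to 55423183, minus strand) was at 357, 886 and 340 in WT PCs, 341, 283 and 315 in KO PCs, 138, 83.8 and 82.8 in WT VMs and 55.2, 103 and 109 in KO VMs. WT PC replicate 2 was the highest library, and the cell types did not overlap. The log2 fold change over both genotypes was 2.09 (SE 0.263, adjusted p = 0.000648, edgeR), and 1.66 with WT PC replicate 2 and KO VM replicate 1 omitted.

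Over both genotypes 8 of the 10 members had every PC library above every VM library, each with an exact two-sided permutation p of 0.005, the smallest that the 400 relabellings within genotype can give. Of all genes tested 1.4% had this pattern. Within a genotype, 9 of 10 members in WT cells (7.37% of all genes tested) and 8 of the 9 tested in KO cells (8.85%) had PCs above VMs without overlap. *Eln* is among the 9 in WT cells. It passed the filter on low counts there only through its WT PC level, so its place in that count is no support. An exact permutation test of 3 against 3 libraries cannot give a p under 0.1. The median log2 fold change of the members over both genotypes was 2.02, against 0.02 for all genes tested. Because the members were chosen with earlier results of these data known, these shares and medians describe them and do not test the list.

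Every tested marker of fibroblasts, endothelial cells, smooth muscle and leukocytes also had a higher level in PCs over both genotypes, and some of them passed the adjustment. Over both genotypes 52.2% of all genes tested had a positive log2 fold change and 1.26% were called higher. The summed normalized count of 10 fibroblast markers, all 10 detected in at least 1 library of each group, was 264 to 533 in WT PCs, 274 to 399 in KO PCs, 76.2 to 211 in WT VMs and 25.5 to 137 in KO VMs. Of these, 8 were tested over both genotypes, all 8 had a positive log2 fold change and 3 passed the adjustment, with a median of 1.64. The sum of 10 endothelial markers was 1150 to 1790 in WT PCs, 794 to 2660 in KO PCs, 402 to 775 in WT VMs and 106 to 494 in KO VMs. All 9 tested had a positive log2 fold change and 2 passed, with a median of 1.56. For 8 smooth muscle and pericyte markers the sums were 1120 to 1400, 994 to 2450, 480 to 981 and 246 to 678 in the same order, and *Cnn1* was at 0 in all KO VM libraries. All 7 tested had a positive log2 fold change and 1 passed, with a median of 1.57. For 9 leukocyte markers the sums were 271 to 687, 249 to 303, 55.5 to 141 and 15.6 to 78.3. All 4 tested had a positive log2 fold change and 2 passed, with a median of 2.13, against 2.02 for the members. The sums of 4 endocardial markers were 1.95 to 251, 152 to 352, 107 to 126 and 70.7 to 122, with WT PC replicate 2 the lowest of all libraries. All 3 tested had a positive log2 fold change and none passed, with a median of 1.11. For 6 Schwann cell markers the sums were 5.85 to 12.1, 5.05 to 30.1, 10.4 to 19.7 and 16.7 to 27.8, with *Sox10* at 0 in every library. The 1 Schwann cell marker tested had a log2 fold change of -0.84. The sums of 9 Purkinje cell markers were 1210 to 1980, 782 to 1590, 553 to 602 and 663 to 836, with 4 of 9 passing. KO PC replicates 1 and 2, at 833 and 782, lay within the range of the KO VMs, and replicate 3, at 1590, above it. In KO cells alone 2 of the 8 Purkinje cell markers tested passed (0.831% of all genes were called higher there), and 2 were lower in PCs. In bulk samples of sorted cells, a change in the number of cells of a type and a change in RNA per cell cannot be told apart. The part of these markers in the differences of the members was not tested.

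*Dcn* and *Vcan* differed in how they stood to the fibroblast sum, a ratio chosen after the values were seen and given as a description. *Dcn* divided by that sum was between 1.07 and 2.08 in all 12 libraries. *Vcan* divided by the sum was 0.636 to 3.44 in WT PCs, 0.178 to 1.45 in KO PCs, 0.194 to 0.293 in WT VMs and 0.121 to 0.24 in KO VMs. The WT PC libraries were above both VM groups for *Vcan* but not for *Dcn*. The counts of *Vcan* relative to *Dcn* were 0.501 to 1.86 in WT PCs, 0.105 to 0.963 in KO PCs, 0.101 to 0.275 in WT VMs and 0.0823 to 0.163 in KO VMs.

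**Figure D3:**
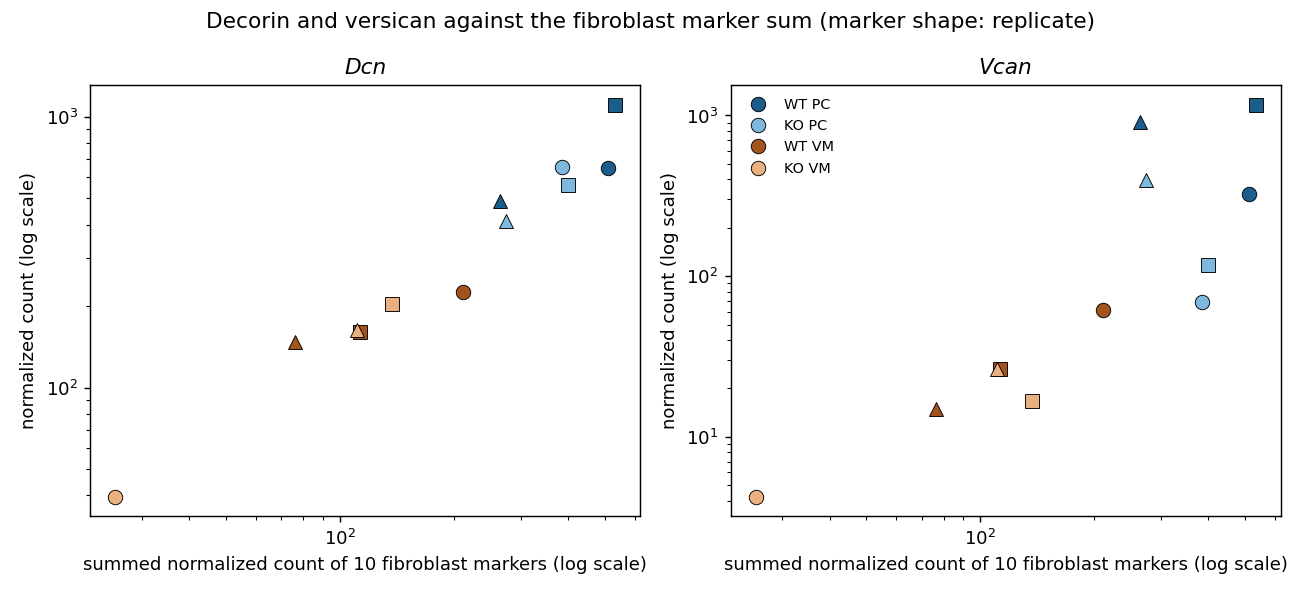
Normalized count of *Dcn* (left) and *Vcan* (right) on the y axes against the summed normalized count of 10 fibroblast markers on the x axes, all on log scales, with a point for each of the 12 libraries, the colour for the group and the shape for the replicate. The *Dcn* points lie near a single line with ratios of 1.07 to 2.08, whereas *Vcan* in WT PCs and in KO PC replicate 3 lies above the other libraries.

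Loss of *Ncam-1* was compared within each cell type, the question the study's design asks. In PCs none of 11615 genes (0%) passed the adjustment by edgeR, with 370 at an unadjusted p under 0.05 and 7 passing by DESeq2's Wald test. No member passed by either. At an unadjusted p under 0.05, 3 of the 10 members were lower in KO PCs, *Vcan*, *Mgp* and *Eln*, against 2.67% of all genes tested. *Eln* entered this contrast only through its WT PC level (mean 15.8, against 2.79 in KO PCs). The filter on low counts thus favoured its direction, and its place in this count is no support. This contrast shares the WT PC libraries with the comparison of WT PCs with WT VMs.

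For *Vcan* the mean was 803 ± 435 in WT PCs against 194 ± 177 in KO PCs (SD, n = 3), and the KO over WT log2 difference was -2.00 (SE 0.637, adjusted p = 0.991, edgeR). KO PC replicate 3, at 396, was above WT PC replicate 1, at 325, so the groups overlapped. Without KO PC replicate 3 the log2 fold change was -3.12, and that library was also the KO PC library with the highest *Cntn2* (452 against 38.7 and 49.2). Without the filter on low counts *Vcan* passed, with an adjusted p of 1.84e-07 among 132 genes called, and over all alternatives its adjusted p ran from 1.84e-07 to 1. For *Mgp* the mean was 142 ± 44.6 in KO PCs and 287 ± 41 in WT PCs, without overlap, a log2 fold change of -1.03 (SE 0.303, adjusted p = 0.991, edgeR). For *Eln* it was -2.36 (SE 0.923, adjusted p = 0.991, edgeR), without overlap and from at most 54 counts. Below the WT range without overlap lay 4.73% of all genes tested.

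The other 7 members had log2 fold changes between -0.74 (*Sparc*, SE 0.362) and 0.32 (*Fbn1*, SE 0.355) in PCs, and their groups overlapped. Without WT PC replicate 2 the value of *Sparc* was -0.17 and that of *Dcn* moved from -0.46 to -0.09, and for *Lum* the sign turned, from -0.51 to 0.56. *Hspg2* had a log2 fold change of 0.15 (SE 0.271) and *Bgn* of 0.17 (SE 0.364).

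In VMs 4 of 10852 genes (0.0369%) passed and no member did. *Mgp* had 31.6 ± 11.7 in KO VMs and 59.7 ± 27.1 in WT VMs, without overlap, a log2 fold change of -0.90 (SE 0.35, adjusted p = 0.927, edgeR). *Bgn* was lower by a similar amount, -0.91 (SE 0.367, adjusted p = 0.927, edgeR), with overlap. These were the 2 of 9 tested members at an unadjusted p under 0.05, against 3.28% of all genes in that direction, and neither was at that level without KO VM replicate 1 or without WT VM replicate 1. Of all genes tested 5.06% had KO VMs below WT VMs without overlap. The KO VM fibroblast sum in replicate 1 was 25.5, against 111 and 137 in the others and 76.2 to 211 in WT VMs, and the part of this library's low stromal markers in the *Bgn* and *Mgp* values was not tested.

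With the filter on low counts, the difference of the genotype effect between PCs and VMs passed for no gene by edgeR or DESeq2 (0 of 11323, with 328 at an unadjusted p under 0.05, 2.9%). Without the filter 19 of 23366 genes (0.0813%) passed by edgeR, with no member among them. In the filtered fit the members' differences ranged from -2.51 (*Eln*, SE 1.25) to 1.08 (*Bgn*, SE 0.586), none at an unadjusted p under 0.05 with all libraries. For *Vcan* the difference was -0.95 (SE 1, adjusted p = 0.999, edgeR), with a range of -2.04 (without KO PC replicate 3) to -0.35 (without KO VM replicate 3), and the larger *Vcan* difference in PCs was therefore not shown to differ from that in VMs.

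**Figure D4:**
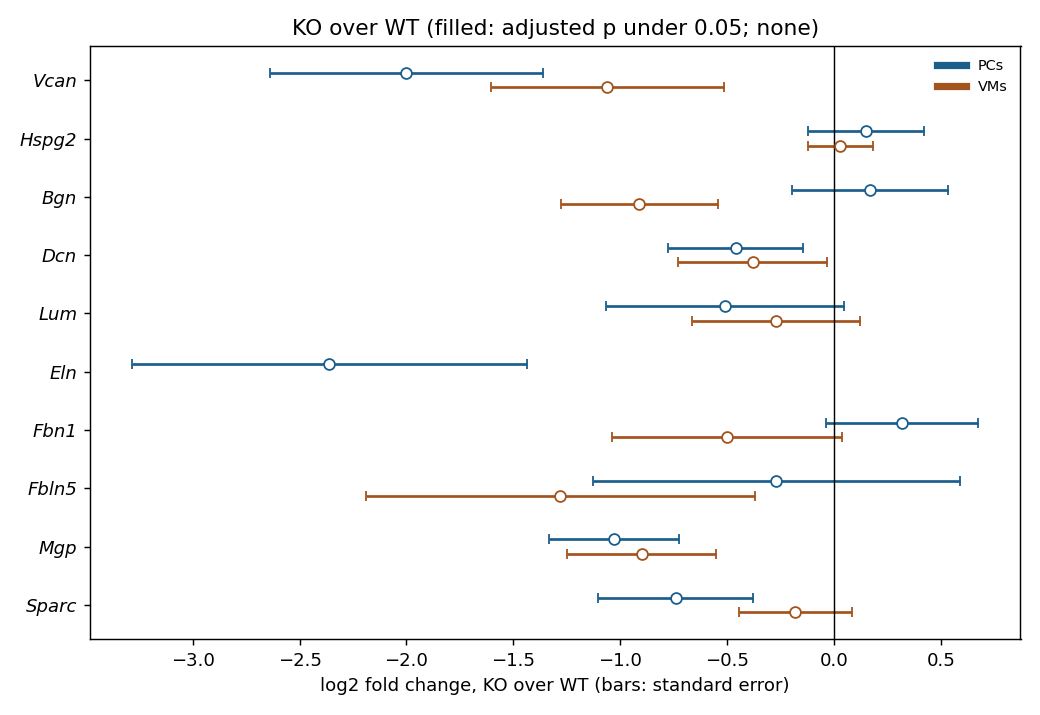
Log2 fold change of KO over WT (x axis) for each member, in PCs and in VMs, with bars for the standard error; open points mark an adjusted p of 0.05 or more (edgeR), which holds for all. *Vcan* at -2.00, *Eln* at -2.36 and *Mgp* at -1.03 are the lowest in PCs, and *Eln* was not tested in VMs.

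The other genes of these pathways were described from 9 lists. Among SPARC relatives and other matricellular genes, 2 of the 10 tested passed between PCs and VMs over both genotypes. Of all genes tested 1.26% were called higher in PCs there, the share to set beside the count of each list. *Spock2*, a proteoglycan of the SPARC family, was at 51.4, 138 and 78 in WT PCs, 12.3, 13.9 and 30.7 in KO PCs, 4.69, 1.88 and 1.48 in WT VMs and 0, 3.85 and 2.32 in KO VMs, with a log2 fold change of 4.33 (SE 0.556, adjusted p = 0.000769, edgeR). *Sparcl1*, the closest relative of *Sparc*, was at 293, 1240 and 529 in WT PCs, 417, 308 and 277 in KO PCs, 120, 64 and 93.9 in WT VMs and 29.7, 134 and 82.2 in KO VMs, a log2 fold change of 2.46 (SE 0.365, adjusted p = 0.00219, edgeR). Both had every PC library above every VM library, as had 1.4% of all genes tested. *Spock2* passed the filter on low counts only through its PC level, with mean normalized counts of 2.68 in WT VMs and 2.06 in KO VMs. In the genotype comparison of PCs, *Spock2* had -2.15 (SE 0.561, adjusted p = 0.991, edgeR), without overlap. Of all genes tested 4.73% had KO PCs below WT PCs in this way.

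Of the other elastic fibre and microfibril genes, 1 of 13 tested passed over both genotypes, *Fbn2*, which encodes a second fibrillin, at 3.36 (SE 0.787, adjusted p = 0.0464, edgeR), with 11 of the 13 at a positive log2 fold change (52.2% of all genes tested) and a list median of 1.85. The PC and VM libraries overlapped for *Fbn2*. Its counts were 12, 85 and 130 in WT PCs, 4, 6 and 79 in KO PCs, 0, 3 and 9 in WT VMs and 0, 0 and 7 in KO VMs. *Fbn2* passed the filter on low counts only through its PC level, with mean normalized counts of 3.76 in WT VMs and 2.7 in KO VMs. In KO cells *Ltbp4*, which binds latent TGF-beta and microfibrils, had 3.89 (SE 0.879, adjusted p = 0.0498, edgeR). Its counts there were 16, 20 and 27 in PCs and 0, 1 and 3 in VMs. *Ltbp4* thus passed the filter on low counts only through its PC level, and the size of its fold change is uncertain. Over both genotypes, basement membrane partners of perlecan included *Col15a1*, at 1.93 (SE 0.457, adjusted p = 0.0494, edgeR), the 1 of 4 tested that passed, with overlap of the PC and VM libraries. The cell surface proteoglycans included *Sdc4*, a syndecan, at 1.61 (SE 0.376, adjusted p = 0.0456, edgeR), the 1 of 9 that passed, without overlap. Of all genes tested 1.26% were called higher over both genotypes and 1.4% had PCs above VMs without overlap. In the other lists none passed over both genotypes. The smallest p there was 0.00295 for *Podn* among 5 other small leucine-rich proteoglycans (log2 fold change 1.40, SE 0.402), 0.00077 for *Adamts5*, a protease that cleaves versican, among 4 such proteases (2.04, SE 0.495), 0.000768 for *Chst11*, a chondroitin sulphotransferase, among 14 sugar chain enzymes (3.42, SE 0.83), 0.907 for *Cd44*, the hyaluronan receptor, among 2 genes of hyaluronan matrix (-0.04, SE 0.326) and 0.0968 for *Vkorc1* among 3 genes of vitamin K carboxylation (1.49, SE 0.843). *Chst11* had counts of 6, 15 and 18 in WT PCs, 5, 5 and 9 in KO PCs and at most 3 in a VM library. *Vkorc1* had 4, 4 and 20 in WT PCs and at most 5 in any other library. *Chst11* passed the filter on low counts only through its PC level and *Vkorc1* only through WT PCs. The filter thus favoured their direction, and the size of their fold changes is uncertain. In the genotype comparisons no gene of the 9 lists passed. The smallest p was 0.000987, for *Sdc2* in VMs, higher in KO at 0.97 (SE 0.244, adjusted p = 0.483, edgeR).

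The genes whose profile over the 12 libraries was most like that of each member were named by the root-mean-square difference of centred log2 normalized counts, among 8099 or 8100 genes. For *Vcan* they were *Spock2* (0.61), the sodium channel gene *Scn10a* (0.86) and the ephrin receptor gene *Ephb1* (0.90), while the standard deviation of *Vcan* itself was 2.32 on this scale. For *Dcn* they included *Gsn* (0.32) and *Cav1* (0.35), for *Lum* they were *Dcn* (0.38), *Sparc* (0.39) and *Marcks* (0.41), and for *Sparc* *Apoe* (0.34), *Gsn* (0.34) and *Lum* (0.39). For *Mgp* they included *Scn7a* (0.43) and *Gsn* (0.44). *Bgn* and *Fbn1* shared *Lrp1* and *Adamts5* among their nearest, at 0.35 and 0.39 for *Bgn* and 0.30 and 0.30 for *Fbn1*, with *Tagln2* (0.30) for *Bgn* and *Pecam1* (0.33) for *Fbn1*. *Hspg2*, which varied by only 0.34, was closest to *F2r* (0.16), *Foxp1* (0.16) and *Rps6* (0.19). For the low genes they were *Entpd1* (0.43), *Ehd2* (0.59) and *Podxl* (0.60) with *Fbln5*, and *Acsl6* (0.57), *Timp2* (0.58) and *Fam49a* (0.60) with *Eln*.

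**Figure D5:**
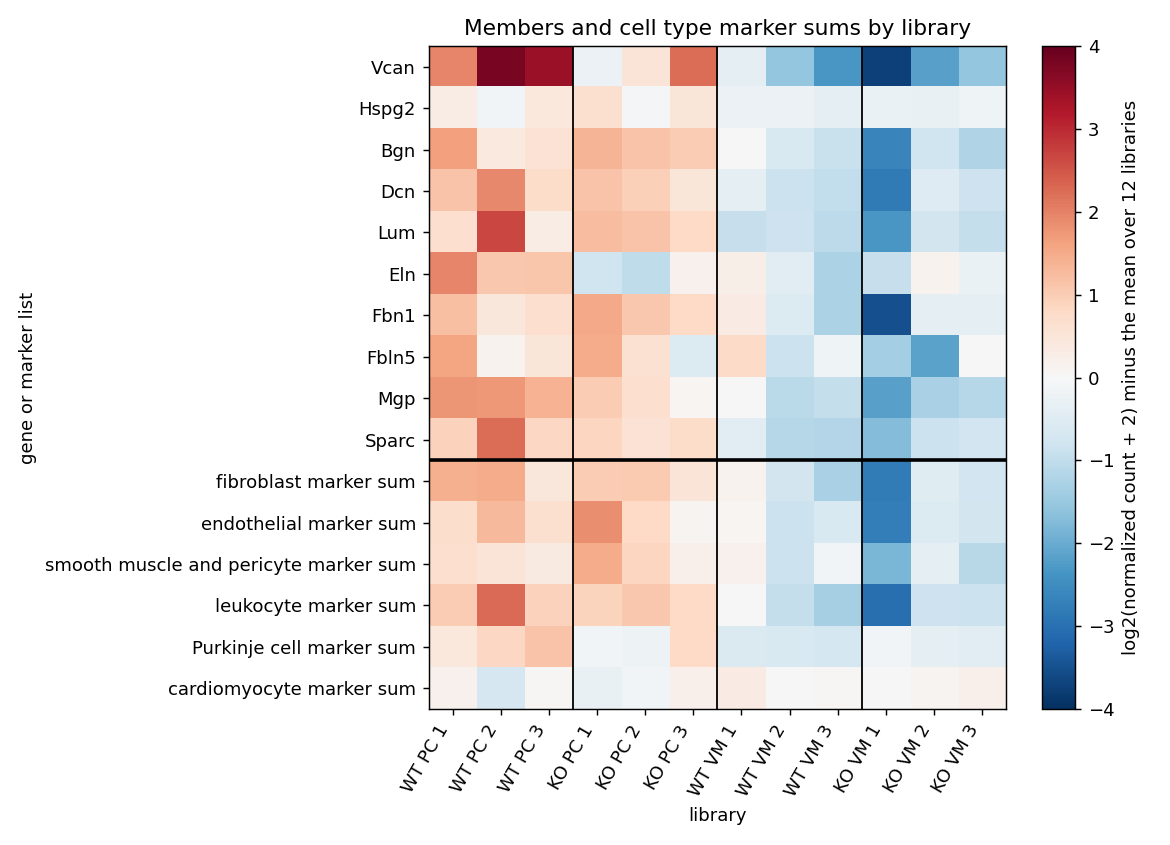
Heat map of log2 normalized counts plus 2, each less its mean over the 12 libraries (colour scale from -4 to 4), with the members and the summed cell type markers as lines and the libraries, grouped as WT PC, KO PC, WT VM and KO VM, as columns. *Vcan* has the strongest colours and *Hspg2* the palest, with standard deviations of 2.32 and 0.34 on the log2 scale, and KO VM replicate 1 is lowest for most members and for the fibroblast, endothelial and leukocyte sums.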

How the data were processed

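The sorted cells' RNA was amplified and turned into libraries with the Nugen Ovation Trio low input kit and sequenced as 50 bp read pairs. The authors aligned reads to mm10 with STAR 2.5.0c under annotation GRCm38.74 and deposited, for each of the 12 libraries, raw counts of read pairs per gene made with HTSeq 0.6.0, without normalization. Amplification and the lack of molecular identifiers mean that intervals and floors cover counting error only. Gene positions, names and exon lengths came from GENCODE M21 (GRCm38), which lacks 468 of the 48526 identifiers (0.00659% of counts). Whether the counting used strand is not given in the sources used here, so antisense overlaps may take or lose reads. HTSeq's classes of pairs assigned to no gene stayed out of every test.

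A normalized count is a count divided by its library's effective size (TMM, 12 libraries) and multiplied by the geometric mean of those sizes (21.6 in units of 1e+06 counts). Tests used R 4.3.3 and edgeR 4.0.16 (glmQLFit, glmQLFTest, TMM, genes with a mean normalized count above 5 in the libraries of the fit, Benjamini-Hochberg over all genes tested, threshold 0.05), on the 6 libraries of the groups compared, or on all 12 for the comparison over both genotypes (additive in genotype) and the difference of genotype effects. Exact two-sided permutation tests took log2 normalized counts plus 2. The alternatives tried were the Wald test of DESeq2 1.42.0, DESeq2's size factors in edgeR, no filter, a replicate block, thinned counts, a single fit of 12 libraries, pseudocounts of 0.5 and 10, and the omission of each library. The steps were tested on simulated data.

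Groups and replicate numbers followed the titles, while the source names number the WT libraries 1, 3 and 4. No 2 libraries were identical (chi-square per degree of freedom at least 7.03). The genes named are the 10 members, the 3 genes nearest to each in profile among those with a mean normalized count above 20, and, in each pathway list, those that passed the adjustment (at most 6 per list and comparison) or else that with the smallest p. A few items are not reported here. Of the genes so named, those of the lists are given here for the comparison over both genotypes and for some of the others. Members, lists and markers were chosen with earlier results of these data known.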

Additional observations from a re-analysis of the deposited data

How the results depend on the processing

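For WT PC against WT VM, where 1 member passed, 0 passed with DESeq2's size factors in edgeR, 5 with DESeq2's Wald test, 6 without the filter on low counts, 0 with counts thinned to the smallest library, 3 in a single fit of all 12 libraries and 0 to 6 with a library left out (6 without WT PC replicate 2, when 107 genes passed in place of 13, and 0 without WT PC replicate 3 or any WT VM library). Genes called over the alternatives were 11, 121, 297, 3 and 38 in that order. For KO PC against KO VM, where 6 passed, 0 passed in the single fit (1 gene called), and 5 to 7 with a library left out (19 to 150 genes called, against 94). DESeq2's Wald test called 132 genes there, and the fit without a filter 326. Over both genotypes 6 to 8 members passed with a library left out, among 69 to 404 genes called against 145, and DESeq2's Wald test called 458 genes and the fit without a filter 592. For KO PC against WT PC, where 0 passed, 1 passed without the filter (132 genes called), and 0 with any library left out. DESeq2's Wald test called 7 genes there and the single fit 3. For KO VM against WT VM, where 4 genes and 0 members passed, 0 members passed in every fit, and 1 to 47 genes did. The cause of these shifts was not tested.

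The replicate numbers were not taken to pair the libraries, and WT libraries carry the numbers 1, 3 and 4 in their source names, so a number shared by WT and KO libraries rests on the titles alone. After centring, same-numbered PC and VM libraries correlated at 0.207, 0.0813 and 0.15 in WT and at -0.00956, 0.121 and 0.0185 in KO over 8100 genes. In WT every library correlated best with its own number, a hint from the data and not from the design, and in KO it did not. With a replicate block, 0 members passed in WT PC against WT VM (4 genes, *Vcan* at an adjusted p of 0.152 by edgeR) and 7 in KO PC against KO VM (114 genes), 6 over both genotypes (98 genes), 0 in KO PC against WT PC (1 gene) and 0 in KO VM against WT VM (7 genes). Under the block the difference of genotype effects turned from -0.08 to 0.13 for *Dcn* and from -0.25 to 0.19 for *Lum*.

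Of 795 values of single members over the alternatives, 716 kept direction and side of the threshold, 18 lost and 33 gained the call and 28 changed sign. With a library left out, the log2 fold changes of KO over WT in PCs ran from -0.07 to 0.66 for *Bgn*, -0.89 to 0.56 for *Lum* and -0.94 to 0.38 for *Fbln5*. In VMs they ran from -0.76 to 0.04 for *Dcn*, -0.56 to 0.09 for *Lum*, -0.85 to 0.02 for *Fbn1* -0.35 to 0.09 for *Sparc* and 0.00 to 0.08 for *Hspg2*. The difference of genotype effects ran from -2.04 to -0.35 for *Vcan* (under an unadjusted p of 0.05 in 1 of 12 fits), 0.69 to 1.59 for *Bgn* (in 2 of 12), -0.56 to 0.09 for *Mgp*, -0.51 to 0.33 for *Dcn*, -0.64 to 0.84 for *Lum*, -0.02 to 0.30 for *Hspg2* and -0.84 to 0.02 for *Sparc*. *Eln* and *Fbln5* had counts as low as 1 and 0, and whether depth or low expression set their calls was not tested.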
